A study of Mus musculus with 57 samples.

Results

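The 7 genes Sox10, Foxd3, Phox2a, Erbb3, Ednrb, Ret and S100b, which mark neural crest derivatives, their glia and autonomic neurons, were followed by name through the count and TPM tables (transcript levels scaled to gene length and library depth) of embryonic mouse tissues with and without Hoxa5. They are 7 of 56860 genes in these tables. Polyadenylated RNA was sequenced in 57 libraries. They came from E15.5 trachea, diaphragm and lung, from E12.5 lung, from somites of E10.5 and of E12.5 embryos, and from the brown fat pad between the shoulder blades (iBAT) of E18.5 embryos. All embryos, wt and mutant alike, were kept in the 129/Sv background. Hoxa5-/- embryos were homozygous for a null allele with a neomycin cassette in the homeobox of the second exon, so reads of the remaining Hoxa5 exons can still be counted in them. Each genotype had 4 libraries per tissue and stage, except 3 mutant libraries for somites at E10.5 and 5 of each genotype for iBAT. What is called somites here was trunk tissue at the levels C3 to T2, from which forelimbs, chest organs and neural tube had been dissected. A list of 15 spinal cord and neural tube genes still summed to 294 to 572 TPM in these libraries at E10.5.

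Neural crest cells leave the dorsal neural tube and give rise to peripheral glia, autonomic and enteric neurons, sensory neurons and melanocytes. Foxd3 is a transcription factor of early crest cells, and Sox10 is kept on in migrating crest cells and in Schwann cell precursors, which travel along growing nerves. In the gut and airway walls, crest cells that carry the receptor Ret, which responds to Gdnf, and the receptor Ednrb, which responds to Edn3, spread and settle as ganglia, where the homeobox factor Phox2a acts in autonomic neurons. Erbb3 receives neuregulin signals in Schwann cell precursors but also acts in epithelia, and S100b, a calcium-binding protein of glia, is also made by cartilage and fat cells.

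Depth was 20552280 to 72991481 counts per library in trachea, lung and diaphragm and 18369905 to 28234711 in somites and iBAT, which were sequenced separately, so that tests were made only within a set. Labels of tissues went with their main markers. The summed level of 10 skeletal muscle genes ran from 19498 to 44827 TPM in diaphragm libraries. That of 9 adipocyte genes ran from 15231 to 21466 TPM in iBAT and that of 14 epithelial genes from 2576 to 10807 TPM in lung at E15.5. Liver and heart genes were present too, and their sum over 10 genes ran from 1099 to 10981 TPM in diaphragm. In trachea it was 2889 to 5007 TPM in wt and 1530 to 2820 TPM in mutants, without overlap. Hoxa5 itself was lower in mutants in all 7 contexts, with log2 fold changes from -1.94 to -0.92. Its call was lost without any 1 of the 8 libraries in trachea and kept in 1 of 7 such fits in somites at E10.5. A gene is called here when the quasi-likelihood test of edgeR gives an adjusted p under 0.05 over all tested genes and the fold change is at least 1.5.

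On GRCm39 the genes lie apart from each other. Sox10 (ENSMUSG00000033006.11) spans chr15:79039108-79049440 on the minus strand, Foxd3 (ENSMUSG00000067261.5) chr4:99544536-99546859 on the plus strand and Phox2a (ENSMUSG00000007946.12) chr7:101467520-101471933 on the plus strand. The receptor genes Erbb3 (ENSMUSG00000018166.9, chr10:128403392-128425521), Ednrb (ENSMUSG00000022122.16, chr14:104052061-104081838) and Ret (ENSMUSG00000030110.14, chr6:118128706-118174679) are on the minus strand. S100b (ENSMUSG00000033208.8) spans chr10:76089687-76096993 on the plus strand. The ends of S100b and Phox2a overlap Dip2a and Inppl1 on the other strand, and since the strand setting of the counting is not given in the sources used here, reads of the overlap cannot be told apart. Promoters are shown for Ednrb and Phox2a, whose RNA fell in mutant diaphragm, and for Foxd3, a crest factor whose RNA did not pass the test there. Each is the 250 bases before the RefSeq start site (table of GRCm38.p6, in which 4 of the 7 genes, Foxd3, S100b, Ednrb and Phox2a, were matched), placed on GRCm39 by matching the sequence. The Ednrb window is chr14:104081138-104081387 on the minus strand, with 56.8% G and C, and lies wholly inside the annotated gene, since its RefSeq start site is 701 bases into it. That of Phox2a is chr7:101467270-101467519 on the plus strand with 70.4%, and that of Foxd3 is chr4:99544286-99544535 on the plus strand with 65.6%.
Ednrb: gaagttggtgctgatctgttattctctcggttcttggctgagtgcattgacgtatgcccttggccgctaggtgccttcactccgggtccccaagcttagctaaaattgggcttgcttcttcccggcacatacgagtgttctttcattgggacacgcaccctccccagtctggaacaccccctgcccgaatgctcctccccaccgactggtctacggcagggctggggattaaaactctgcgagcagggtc
Phox2a: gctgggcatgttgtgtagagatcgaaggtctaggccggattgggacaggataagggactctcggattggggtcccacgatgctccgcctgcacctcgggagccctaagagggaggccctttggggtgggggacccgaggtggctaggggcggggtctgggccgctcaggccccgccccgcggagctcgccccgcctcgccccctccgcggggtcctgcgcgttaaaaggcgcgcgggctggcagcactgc
Foxd3: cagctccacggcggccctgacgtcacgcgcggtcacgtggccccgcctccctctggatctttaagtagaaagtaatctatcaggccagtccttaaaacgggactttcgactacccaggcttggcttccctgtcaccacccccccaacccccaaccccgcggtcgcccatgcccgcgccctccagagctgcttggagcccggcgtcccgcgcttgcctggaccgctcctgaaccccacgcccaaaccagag
Both strands were searched for the SOX letters ACAAAG and ACAATG, the HOX and PBX letters TGATTNAT and the E-box CANNTG, none of which overlap in these windows. Of these 3 windows only that of Foxd3 held a match, the E-box CACGTG from 217 to 212 bases before the start. Of 32851 mouse promoters of the same length, 16.5% hold ACAAAG, 10.7% ACAATG, 2.82% TGATTNAT and 66.2% CANNTG. A match is no more than shared letters.

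In wt embryos the 7 genes did not share 1 pattern over tissues. The transcription factors Sox10, Foxd3 and Phox2a fell in lung between E12.5 and E15.5, whereas the receptor Erbb3 rose. At E12.5, wt lung libraries held 23.1, 13.3, 8.02 and 5.26 TPM of Sox10. At E15.5 they held 1.96, 1.08, 1.10 and 1.95 TPM, all below every E12.5 library. The log2 fold change was -3.08 (SE 0.46, adjusted p = 0.000325, edgeR). Foxd3 fell by 3.10 on the log2 scale (SE 0.59, adjusted p = 0.00164) and Phox2a by 2.25 (SE 0.68, adjusted p = 0.0189), and the Phox2a libraries of both stages overlapped. Phox2a ran from 0.747 to 7.24 TPM at E12.5, with a median of 1.58 TPM. Leaving out each library in turn gave it log2 fold changes of -2.55 to -1.15. Without lung wt library 2 of E15.5 the adjusted p of Phox2a was 0.056. Erbb3 rose by 0.76 (SE 0.10, adjusted p = 0.000115), from 47.5 ± 3.79 TPM (SD, n = 4) to 82.2 ± 12.02 TPM. The sum of 14 epithelial genes rose alongside, from 1171 to 1340 TPM at E12.5 to 4862 to 10807 TPM at E15.5, and its part in the rise of Erbb3 was not tested. Ednrb changed by 0.19 (adjusted p = 0.288) and Ret by 0.30 (adjusted p = 0.461), which did not pass, and S100b was under 1 TPM in all 8 libraries and was not tested. Of 6 members tested, 4 were called, where 24.6% of all genes were.

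Between E10.5 and E12.5, S100b and Erbb3 rose in wt somites, and so did the summed levels of some other cell types. The sum of 12 cartilage genes went from 249 to 342 TPM at E10.5 to 3212 to 4601 TPM at E12.5, that of 10 skeletal muscle genes from 377 to 668 TPM to 3873 to 5621 TPM and that of 14 epithelial genes from 92.9 to 165 TPM to 369.8 to 434 TPM. Their part in the rise of S100b and Erbb3 was not tested. Sums of neural lists fell. That of 15 spinal cord and neural tube genes went from 294 to 494 TPM to 88.6 to 101 TPM. That of 12 sensory neuron genes went from 262 to 321 TPM to 64.0 to 116 TPM. For 35 autonomic and enteric neuron genes it went from 1792 to 2776 TPM to 1056 to 2086 TPM, with overlap. The part of neural tissue in the levels of the members was not tested. S100b had 0 to 4 reads per library at E10.5 and 28.6, 34.5, 22.1 and 23.9 TPM at E12.5, and its log2 fold change of 6.93 (SE 0.34, adjusted p = 1.21e-09) rests on those few reads. Erbb3 rose from 15.4 ± 2.96 to 59.6 ± 2.17 TPM (SD, n = 4), a log2 fold change of 1.90 (SE 0.09, adjusted p = 1.46e-09). Foxd3 rose by 0.59 (SE 0.13, adjusted p = 0.00114), just past the fold minimum, and was at 0.58 with DESeq2. It was called in 4 of 8 fits without 1 library, and not without library 2 or 4 of E10.5 (0.54 and 0.53) or library 2 or 3 of E12.5 (0.55 and 0.57). Sox10 was at 0.44 (adjusted p = 0.00542), under the fold minimum, and Phox2a, Ret and Ednrb were at -0.53, -0.42 and -0.18 and were not called. Without library 2 or 4 of either stage Phox2a passed the fold minimum (-0.61 to -0.59), and without library 3 of E12.5 Ret was called (-0.61, adjusted p = 0.00481). Thus 3 of 7 members were called, where 42.6% of all genes were, a share near the background.

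Within E15.5, trachea held the most Phox2a and Ret and diaphragm the most Foxd3 and Erbb3. Phox2a was 34.1, 23.98, 12.7 and 43.2 TPM in wt trachea, against 0.54, 0.37, 0.76 and 0.83 TPM in wt lung and 2.50, 4.13, 2.16 and 2.58 TPM in wt diaphragm. These groups did not overlap. Relative to lung, trachea was higher by 4.34 on the log2 scale for Sox10, 4.45 for Foxd3, 5.78 for S100b, 5.49 for Phox2a and 1.23 for Ret. Ednrb was lower by 0.63 there, a call lost without trachea wt library 4 (-0.57) or lung wt library 3 (-0.48), whereas Erbb3, at -0.27, was not called. That made 6 of 7 members, where 30.2% of all genes were called. All 7 differed between diaphragm and lung, where 36.4% of all genes did. Foxd3 (6.43), Sox10 (4.03), S100b (3.12), Phox2a (2.51) and Erbb3 (0.66) were higher in diaphragm, while Ednrb (-1.20) and Ret (-1.35) were lower. Diaphragm against trachea gave 6 called members, where 32.5% of all genes were called. Foxd3 (1.94) and Erbb3 (0.88) were higher in diaphragm, and Phox2a (-3.02), S100b (-2.71), Ret (-2.62) and Ednrb (-0.62) were lower. Ednrb fell under the fold minimum without trachea wt library 1 (-0.57) or diaphragm wt library 1 or 4 (-0.58 and -0.54). Sox10 alone was not called, at -0.36 (adjusted p = 0.112).

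In iBAT, S100b was the most abundant member, with 69.2, 86.4, 77.3, 87.8 and 50.9 TPM in wt libraries, whereas Sox10 lay between 0.627 and 1.39 TPM. Against wt somites at E12.5, S100b was higher by 2.67 on the log2 scale (SE 0.19, adjusted p = 4.62e-09). Sox10 (-4.72), Foxd3 (-3.96), Erbb3 (-3.64), Ret (-3.05) and Phox2a (-0.81) were lower, and Ednrb, at 0.30 (adjusted p = 0.0237), was under the fold minimum. The background is high here, since 66.3% of all genes were called. Over the 7 wt contexts, listed without a test across the sequencing sets, mean Sox10 ran from 56.3 TPM in somites at E12.5 over 39.6, 31.7, 20.2, 12.4 and 1.52 TPM in somites at E10.5, trachea, diaphragm, lung at E12.5 and lung at E15.5 to 0.934 TPM in iBAT. In that order only the somite stages and the lung stages were neighbours without overlap. The order of Ednrb was led by lung at E15.5 (153 TPM) and E12.5 (132 TPM), and that of Erbb3 by diaphragm (105 TPM) and lung at E15.5 (82.2 TPM), an order unlike that of Sox10.

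**Figure D1:**
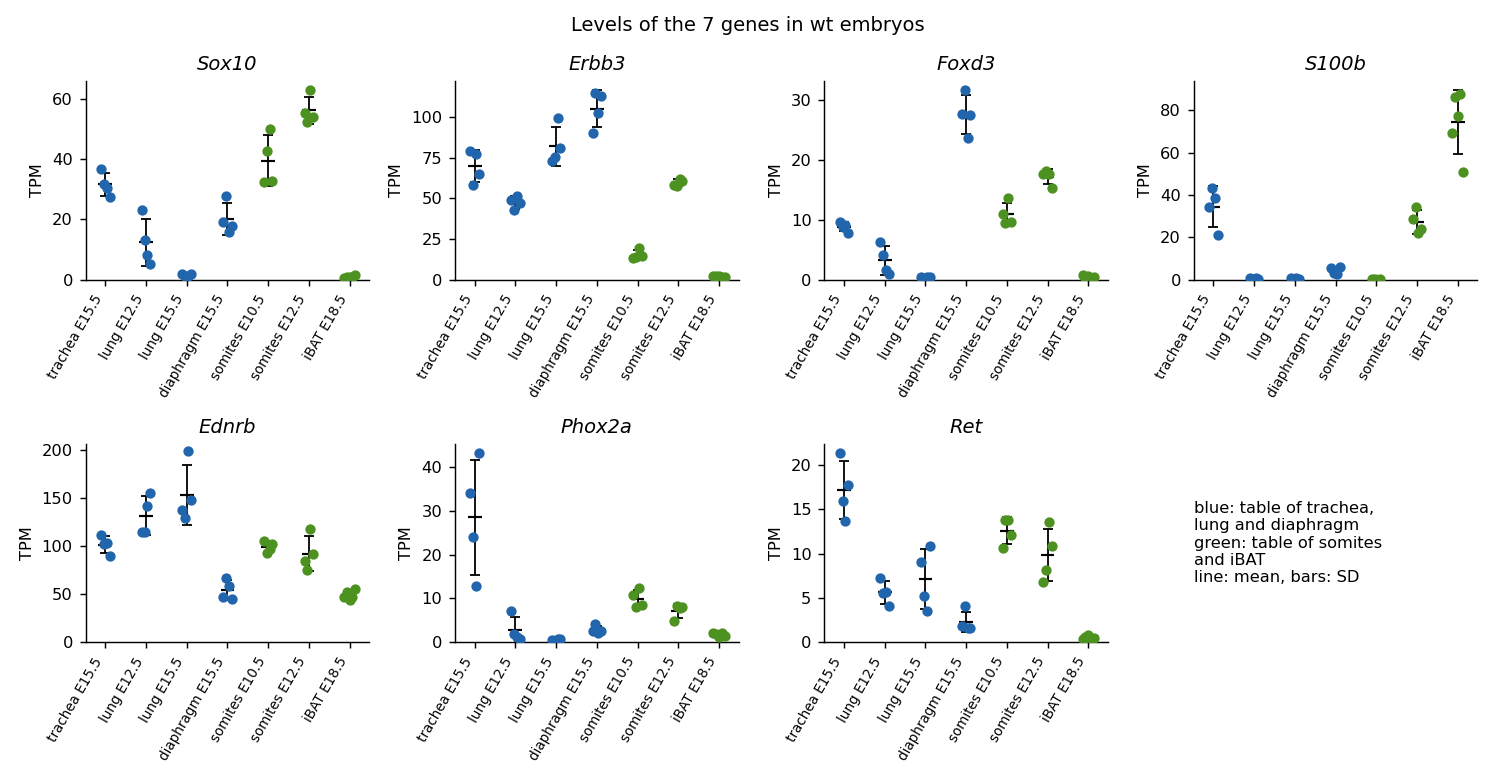
TPM of the 7 genes in every wt library by tissue and stage, on linear axes from 0, with the mean and SD of each group. Sox10 and Foxd3 are near 0 in lung at E15.5 and iBAT, while Ednrb is at its highest in that lung (mean 153 TPM) and S100b in iBAT (mean 74.3 TPM).

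In diaphragm at E15.5, Sox10, Ednrb, Phox2a and Ret were lower in Hoxa5-/- embryos, whereas Erbb3, Foxd3 and S100b did not pass the test. Thus 4 of 7 members were called, all lower, by edgeR as well as by DESeq2, where 0.594% of all 18019 tested genes were called (107 genes, 88 of them lower). The median log2 fold change was -1.16 over the members and 0.00485 over all genes. In these bulk samples, fewer cells of a type and less RNA per cell cannot be told apart.

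Sox10, the crest and glial factor, was at 19.1, 27.8, 15.8 and 17.9 TPM in wt and at 5.04, 6.20, 7.49 and 4.99 TPM in mutant diaphragms. Every wt library lay well above every mutant one. The means were 20.2 ± 5.30 and 5.93 ± 1.18 TPM (SD, n = 4 each), and the log2 fold change was -1.77 (SE 0.20, adjusted p = 0.00853, edgeR). Leaving out each library in turn gave -1.90 to -1.59, called in 8 of 8 fits.

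Ednrb, the endothelin receptor, was at 47.3, 66.5, 58.8 and 45.0 TPM in wt and at 27.8, 26.1, 21.7 and 21.9 TPM in mutants, again without overlap. Its log2 fold change was -1.16 (SE 0.12, adjusted p = 0.00679), called in 8 of 8 fits without 1 library. Ednrb is therefore the member with the least reduction among the 4, and mutants kept a mean of 24.4 ± 3.06 TPM.

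Ret, the receptor for Gdnf family ligands, was at 1.85, 4.05, 1.65 and 1.60 TPM in wt and at 0.389, 0.312, 0.338 and 0.361 TPM in mutants. These levels stand for 81 to 225 reads per wt library and for 22 to 30 reads per mutant library, although each mutant library was deeper than 3 of the 4 wt libraries. The log2 fold change was -2.70 (SE 0.32, adjusted p = 0.0112). It was called in 6 of 8 fits without 1 library, with an adjusted p of 0.0536 without mutant library 1 and 0.0546 without mutant library 2. Wt library 2 stood above the other wt libraries, and without it the log2 fold change was -2.29 (adjusted p = 0.00659).

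Phox2a, the autonomic neuron factor, was at 2.50, 4.13, 2.16 and 2.58 TPM in wt and at 0.646, 0.296, 0.408 and 0.7998 TPM in mutants. That is 33 to 69 reads per wt library and 8 to 20 per mutant library, without overlap in TPM. The log2 fold change was -2.39 (SE 0.34, adjusted p = 0.0231). This call is the least firm of the 4, since it held in 3 of 8 fits without 1 library. The adjusted p was 0.0773 without wt library 1, 0.066 without wt library 2, and 0.0896, 0.0619 and 0.0744 without mutant libraries 1, 2 and 3.

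Erbb3, the neuregulin receptor, was at 90.2, 115, 103 and 113 TPM in wt and at 118, 132, 104 and 102 TPM in mutants. Foxd3 was at 27.6, 31.5, 23.6 and 27.4 TPM in wt and at 26.9, 25.6, 17.5 and 24.7 TPM in mutants. The groups of both genes overlapped, with log2 fold changes of 0.11 (SE 0.09, adjusted p = 0.643) and -0.23 (SE 0.14, adjusted p = 0.548). S100b was at 5.41, 3.12, 2.46 and 6.02 TPM in wt and at 2.93, 1.68, 8.96 and 1.81 TPM in mutants. Its log2 fold change of -0.18 (SE 0.58, adjusted p = 0.917) hangs on mutant library 3, without which it was -1.01. That library also had the highest sum of 12 cartilage genes, 744 TPM against 66.6 to 92.9 TPM in the others, and the part of these genes in the level of S100b was not tested.

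**Figure D2:**
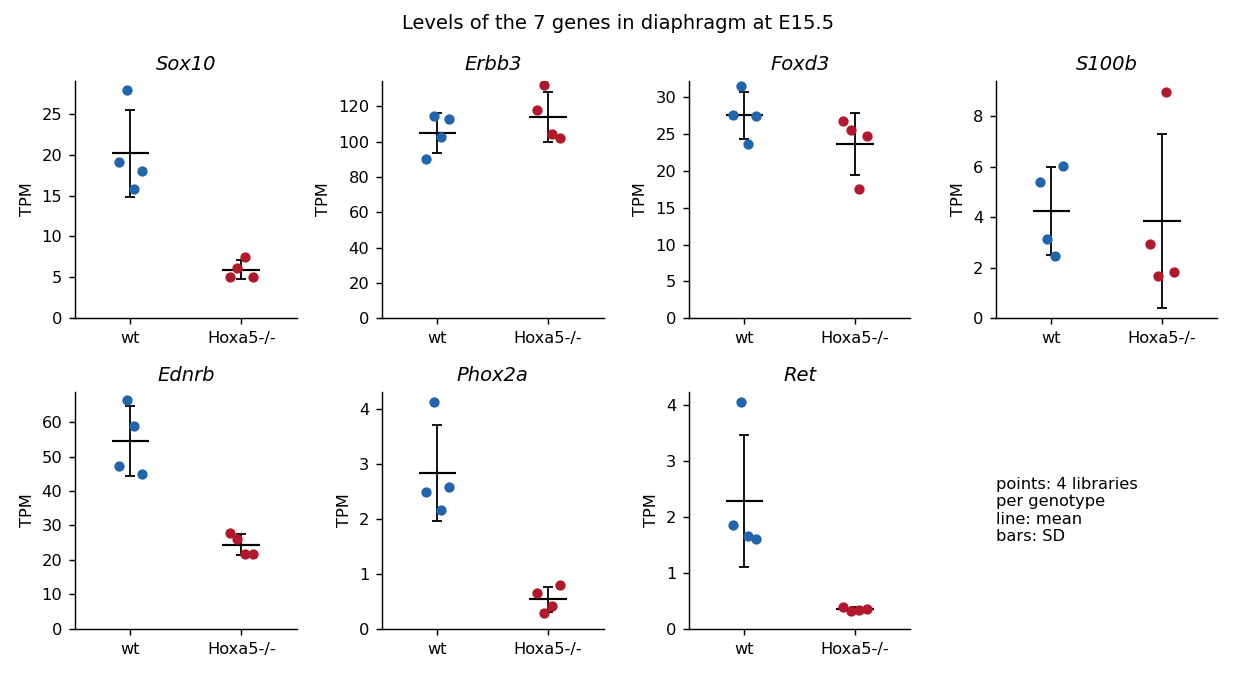
TPM of the 7 genes in the 8 diaphragm libraries at E15.5, on linear axes from 0, with points for libraries, a line for the mean and bars for the SD. Wt and Hoxa5-/- libraries are separated for Sox10, Ednrb, Phox2a and Ret and overlap for Erbb3, Foxd3 and S100b.

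Within each diaphragm library, levels of 2 members were also set against each other as log2 ratios of TPM, which no scaling between libraries can alter. Of the 21 pairs of members, 12 had ratios that did not overlap between genotypes. The share among pairs of other genes was not computed. Pairs of a called with an uncalled member restate the calls above on the same libraries. The ratio of Sox10 to Foxd3 was lower in mutants by 1.52, from -0.48 ± 0.20 to -1.999 ± 0.54 (SD, n = 4 each), and that of Sox10 to Erbb3 by 1.87. The ratio of Sox10 to Ret was higher in mutants by 0.84. Phox2a and Ret kept their ratio more nearly, with a difference of 0.13 (two-sided exact permutation test, p = 0.743, adjusted p = 0.78). For the 12 pairs the exact permutation test gave p = 0.0286, the smallest that 4 against 4 libraries allow, and an adjusted p of 0.05 over 21 pairs, so that no pair passed the threshold.

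Genes of Schwann cell precursors and glia divided in the same tissue. Of 22 such genes, all tested, 5 fell, 0 rose and 18 had a log2 fold change below 0, with a median of -0.42 against 0.00485 over all genes. DESeq2 called 9 lower and 1 higher. Their summed level overlapped between genotypes, with 1708 to 2305 TPM in wt and 1849 to 2341 TPM in mutants. Mal, a proteolipid of myelin-forming cells, was at 9.77, 9.95, 3.48 and 5.64 TPM in wt and at 0.619, 0.217, 0.374 and 0.352 TPM in mutants (log2 fold change -4.22, SE 0.45, adjusted p = 0.00679). Fabp7, a fatty acid binding protein of Schwann cell precursors, was between 9.26 and 17.2 TPM in wt and between 1.33 and 2.67 TPM in mutants (-2.64, SE 0.27, adjusted p = 0.00679). Also lower were L1cam (-2.38), an adhesion molecule of axons and glia, and Gfra3 (-2.24), the Artn co-receptor of Ret, both named after their values were seen.

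The 35 genes of autonomic and enteric neurons were weak in diaphragm, and 26 of them were tested. All 26 had a log2 fold change below 0, 6 of them called (12 by DESeq2), with a median of -0.89. Tlx2, a homeobox gene of enteric and autonomic neurons, was between 1.03 and 1.92 TPM in wt and at most 0.154 TPM in mutants (-4.49, adjusted p = 0.0152). Its fitted value rests on mutant libraries with few or no reads. Also lower, and named after their values were seen, were the neuronal cytoskeleton genes Stmn2 (-3.20), Tubb3 (-2.85) and Prph (-2.12). Stmn2 was at 5.26, 7.97, 4.15 and 5.81 TPM in wt and at 0.488, 0.592, 0.519 and 0.915 TPM in mutants. Gap43, a gene of growing axons, kept 14.1 to 18.53 TPM in mutants against 22.9 to 32.4 TPM in wt (-0.65, adjusted p = 0.10002), which edgeR did not call and DESeq2 did. The summed level of the 35 genes was 171 to 274 TPM in wt and 128 to 141 TPM in mutants.

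Ligands, co-receptors and partner receptors of Ret, Ednrb and Erbb3 gave no call by edgeR among 17 tested, and 1 by DESeq2 (Gfra2, the Nrtn co-receptor, lower and named after its value was seen), with a median of -0.041. Gdnf was at 1.86 ± 0.775 TPM in wt and 1.61 ± 0.566 TPM in mutants, and its co-receptor Gfra1 at 20.2 ± 3.67 and 26.1 ± 4.18 TPM. Edn3, the ligand of Ednrb, was at 18.7 ± 2.94 and 20.8 ± 4.21 TPM, and Ednra, the related receptor, at 51.9 ± 11.3 and 50.03 ± 6.07 TPM. Erbb2, the partner of Erbb3, was at 79.7 ± 7.45 and 76.2 ± 8.57 TPM. Nrg1, the neuregulin, was at 2.87, 4.45, 3.27 and 2.96 TPM in wt and at 5.08, 5.66, 4.82 and 4.71 TPM in mutants, without overlap (0.58, SE 0.12, adjusted p = 0.0842, not called). Of 13 tested crest specifiers, 1 fell, Dlx2 (-3.27, adjusted p = 0.0118), and the median was -0.0056.

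Genes of other cell types moved with genotype in diaphragm too. Of 14 epithelial genes, 13 had a log2 fold change below 0, with a median of -2.90, and 1 was called (Esrp1, an epithelial splicing factor, -5.98, adjusted p = 0.0459), 5 by DESeq2. Their summed level was 222, 314, 784 and 77.3 TPM in wt and 95.3, 60.6, 151 and 129 TPM in mutants, and none of the 14 was at 0 throughout. Wt libraries 1, 2 and 3 thus lay above all mutants. Wt library 4 lay inside the mutant range. It held 17.9 TPM of Sox10, 45.0 TPM of Ednrb, 2.58 TPM of Phox2a and 1.60 TPM of Ret, each above every mutant library. Wt library 3 had the most epithelial RNA, with 322 TPM of Sftpc, a gene of lung epithelium, and the least Sox10 of wt. Wt library 2, with the next highest epithelial sum, had the most Sox10, Ednrb, Phox2a and Ret. Nkx6-1, from the list of spinal cord and neural tube genes, of which 4 were tested, also fell (-4.73, adjusted p = 0.0215), from 7.08, 14.1, 1.60 and 3.83 TPM to at most 0.311 TPM. In this gene too, wt library 4 lay above every mutant library. No gene was called among 8 endothelial, 10 muscle, 12 cartilage, 5 adipocyte, 3 melanocyte, 5 sensory neuron, 6 neuroendocrine and 7 liver and heart genes tested, while DESeq2 called Cldn5 of the endothelial list and Chgb and Syp of the neuroendocrine list, named after their values were seen. Summed levels of some of these lists still differed without overlap, at 356 to 452 TPM in wt and 254 to 346 TPM in mutants for endothelial genes, 10.8 to 14.004 TPM and 6.44 to 8.95 TPM for neuroendocrine genes, and 17.996 to 20.1 TPM and 21.6 to 24.4 TPM for sensory neuron genes. All 8 endothelial and all 6 neuroendocrine genes tested had a log2 fold change below 0, and all 12 cartilage genes one above 0 (median 1.98), with mutant library 3 holding the most cartilage RNA. The part of these cell types in the levels of the members was not tested.

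The genotype comparison was repeated with these libraries in mind, by alternatives chosen after seeing the data. With the log2 epithelial sum as a covariate, Sox10 (-1.78, adjusted p = 0.0369), Ednrb (-1.06, adjusted p = 0.0341) and Ret (-2.57, adjusted p = 0.0499) were called, and Phox2a was at -2.36 (adjusted p = 0.0804). Without wt libraries 2 and 3 the values were -1.70, -0.97, -2.34 and, for Phox2a, -2.27 (adjusted p = 0.0839). Without mutant library 3 as well they were -1.83, -0.93, -2.33 and, for Phox2a, -2.18 (adjusted p = 0.114). In each case 3 members were called, and 57, 78 and 80 genes in all. Wt library 1, with 46.2 TPM of Krt5, stayed in each fit, and Sftpc led the epithelial sum of wt library 3. Wt library 4, with 3.83 TPM of Nkx6-1, stayed in each fit as well. The part of tissue rich in Krt5, or of tissue with Nkx6-1, in the levels of the members was therefore not tested.

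**Figure D3:**
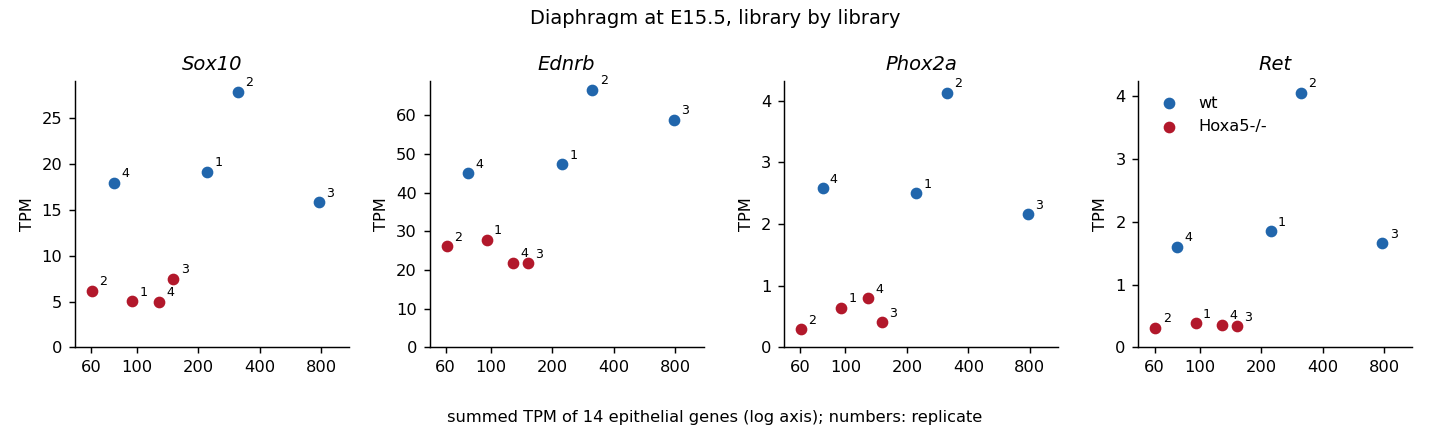
TPM of Sox10, Ednrb, Phox2a and Ret (linear axes from 0) against the summed TPM of 14 epithelial genes (log axis) in each diaphragm library at E15.5, with the replicate number beside each point. Wt library 4 has an epithelial sum of 77.3 TPM, within the range of the mutants, and lies above them on each vertical axis. The part of other tissue in these levels was not tested.

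In the other 6 contexts no member was called by edgeR or by DESeq2. The shares of all genes called were 0.0156% in trachea, 0.0798% in E12.5 lung and 0.124% in E15.5 lung, 0.0215% in E10.5 somites, 0.00529% in E12.5 somites and 0.00657% in iBAT, so few genes of any kind were called. Members tested numbered 7, 6, 5, 6, 7 and 4 in the same order. Of these, 1, 1, 0, 3, 2 and 0 had an unadjusted p under 0.05. Among all genes, 1288 of 19220 had such a p in trachea, 1406 of 17548 in E12.5 lung and 1123 of 17777 in E15.5 lung. So did 2360 of 18573 in E10.5 somites, 613 of 18906 in E12.5 somites and 376 of 15212 in iBAT. In trachea, Sox10 was at 36.7, 31.8, 30.6 and 27.5 TPM in wt and at 32.5, 55.5, 52.0 and 41.3 TPM in mutants, overlapping by 1 mutant library, with a log2 fold change of 0.51 (SE 0.17, adjusted p = 0.682). Foxd3 was at 0.48 (adjusted p = 0.745), and Phox2a (0.16), Erbb3 (0.15), Ednrb (0.05) and Ret (-0.07) were nearer to 0. S100b in trachea ran from 12.7 to 58.5 TPM in mutants, and the highest and the lowest library were also those with the highest and lowest cartilage sums, 7553 and 1967 TPM.

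In lung at E12.5 the crest genes varied more between embryos of 1 genotype than between genotypes. Wt library 1 had the most Sox10 (23.1 TPM), Foxd3 (6.24 TPM), Phox2a (7.24 TPM) and Ret (7.30 TPM), and wt library 4 the least of all 4, with 5.26, 0.952, 0.747 and 4.09 TPM. Mutant library 3 was likewise the highest mutant library in all 4 genes. Fold changes were 0.30 for Sox10, 0.13 for Foxd3, -0.29 for Phox2a and 0.04 for Ret on the log2 scale, each with an adjusted p of at least 0.877. Ednrb was at 115, 115, 142 and 156 TPM in wt and at 98.7, 117, 104 and 114 TPM in mutants (-0.27, SE 0.09, adjusted p = 0.455). S100b, under 1 TPM, was not tested. In lung at E15.5, Phox2a was at 0.54, 0.37, 0.76 and 0.83 TPM in wt and at 1.59, 0.758, 0.563 and 3.02 TPM in mutants (1.42, SE 0.64, adjusted p = 0.804). Mutant library 4, at 3.02 TPM, had the fewest counts of the lung libraries of this stage (20692978) and the lowest sums of epithelial (2576 TPM) and endothelial genes (641 TPM). Without it the log2 fold change of Phox2a was 0.61, and 3 members were called in the difference between diaphragm and lung. Sox10 (0.42), Ret (0.19), Ednrb (0.09) and Erbb3 (-0.0016) were not called either, and Foxd3 and S100b were too low to be tested. In iBAT, Sox10, Foxd3 and Ret were too low, and S100b (0.24), Ednrb (-0.12), Erbb3 (-0.31) and Phox2a (-0.43) all had an adjusted p of 1.

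The difference between genotype effects was tested within the sequencing set of trachea, lung and diaphragm. The effects on Sox10 (-2.19, SE 0.37, adjusted p = 0.0126), Ednrb (-1.26, SE 0.21, adjusted p = 0.0125), Phox2a (-3.82, SE 0.78, adjusted p = 0.0353) and Ret (-2.90, SE 0.57, adjusted p = 0.0273) were more negative in diaphragm than in lung at E15.5, which made 4 of 7 members, where 0.73% of all genes were called. Against trachea, Sox10 (-2.26, SE 0.27, adjusted p = 0.00192), Ednrb (-1.18, SE 0.17, adjusted p = 0.00495) and Ret (-2.61, SE 0.40, adjusted p = 0.00915) were called, where 0.439% of all genes were. Phox2a was at -2.52 (adjusted p = 0.0748) and was called by DESeq2. Both tests share the diaphragm libraries. Against lung, the calls of Phox2a and Ret were lost together without wt library 2 or mutant library 1 of lung, or without wt library 2 or mutant library 1, 2 or 3 of diaphragm. Phox2a alone was lost without wt library 1, 3 or 4 of lung or wt library 1 of diaphragm, and Ret alone without mutant library 2 or 4 of lung or mutant library 4 of diaphragm. The adjusted p ran from 0.0577 to 0.0955 in these fits for Phox2a and from 0.0552 to 0.0748 for Ret, while Sox10 and Ednrb were called in every such fit. No member was called for trachea minus lung at E15.5 (0.00502% of all genes called, 0 members at an unadjusted p under 0.05 and 0 by DESeq2). None was called for lung at E15.5 minus E12.5 either (0.0267%, and again 0 and 0). In fits of all genes with a count, Phox2a was the member farthest from 0, at -1.19 and 1.71. Few genes of any kind were called in these tests, so a difference is not excluded.

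**Figure D4:**
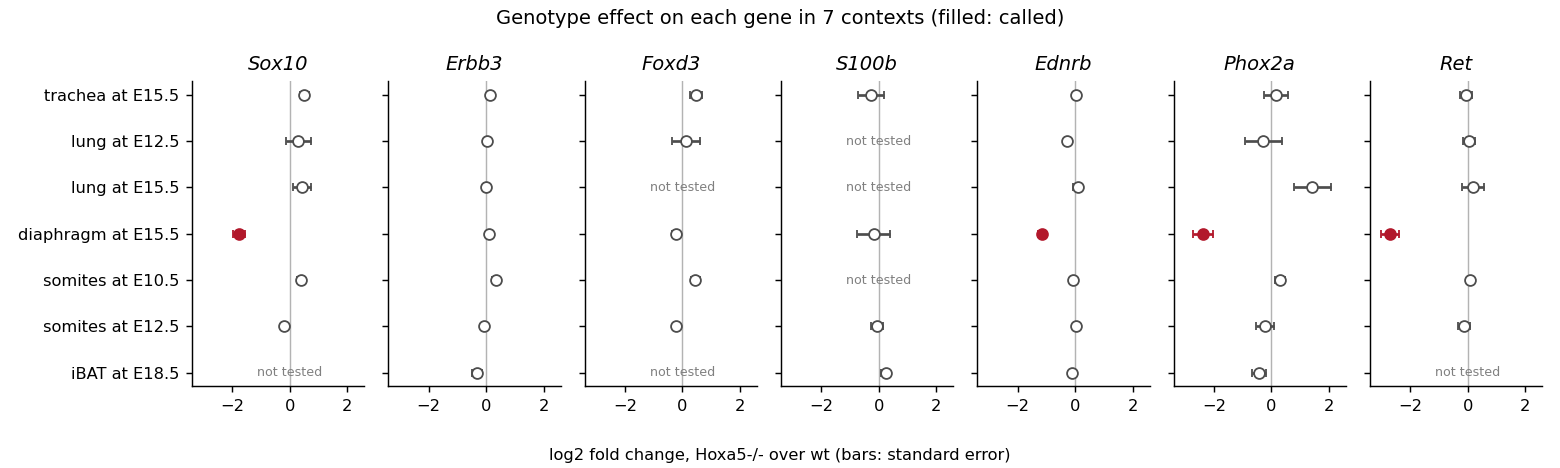
Log2 fold change of Hoxa5-/- over wt with its standard error (x axis) for each gene in the 7 contexts (y axis), where filled points passed the test and genes under 1 TPM in both genotypes are marked as not tested. Only the diaphragm points of Sox10 (-1.77), Ednrb (-1.16), Phox2a (-2.39) and Ret (-2.70) are filled.

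In somites no member was called at either stage. The mean levels of Sox10, Foxd3 and Erbb3 were above wt in mutants at E10.5 and below wt at E12.5. At E10.5, Foxd3 was at 10.9, 9.41, 13.6 and 9.66 TPM in wt and at 17.8, 14.9 and 13.7 TPM in mutants, just without overlap. Sox10 was at 32.5, 42.8, 50.2 and 32.8 TPM in wt and at 48.6, 52.7 and 60.1 TPM in mutants. Wt library 3 alone reached the mutants, and it was also the highest wt library for Foxd3 and Erbb3. Log2 fold changes were 0.45 for Foxd3 (SE 0.15), 0.40 for Sox10 (SE 0.15) and 0.34 for Erbb3 (SE 0.12), each with an adjusted p of 0.391. Phox2a (0.29), Ret (0.08) and Ednrb (-0.09) were not called, and S100b had at most 7 reads per library and was not tested. Sums of other cell types were also higher in mutants at E10.5 without overlap, with 92.9 to 165 TPM in wt and 174 to 180 TPM in mutants for 14 epithelial genes and 231 to 297 TPM against 299.8 to 330 TPM for 8 endothelial genes. Their part in the levels of the members was not tested. At E12.5, Sox10 was at 55.4, 52.5, 62.9 and 54.2 TPM in wt and at 45.9, 42.1, 51.4 and 53.7 TPM in mutants (-0.22, SE 0.09, adjusted p = 0.999). Foxd3 was at 17.5, 18.2, 17.7 and 15.3 TPM in wt and at 14.7, 13.5, 15.7 and 15.2 TPM in mutants (-0.21, SE 0.09, adjusted p = 0.999). Both groups overlapped. The remaining members lay between -0.23 and 0.04.

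The change of the genotype effect from E10.5 to E12.5 was -0.67 for Foxd3 (SE 0.17), -0.61 for Sox10 (SE 0.18) and -0.41 for Erbb3 (SE 0.13), with unadjusted p of 0.000965, 0.00285 and 0.00566 and an adjusted p of 0.327 each (edgeR). Thus 0 of 7 members were called by edgeR and 0 by DESeq2, where edgeR called 0.0147% of all genes. An unadjusted p under 0.05 was found for 3 of 7 members and for 2918 of all 20419 genes. Of 15 fits without 1 library, only that without wt library 3 of E10.5 called any member. The values there were -0.75, -0.71 and -0.51 with adjusted p of 0.00976, 0.0152 and 0.00777, so that all 3 were called. That library had the highest wt level of all 3 genes at E10.5, so leaving it out had to move the values further below 0.

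**Figure D5:**
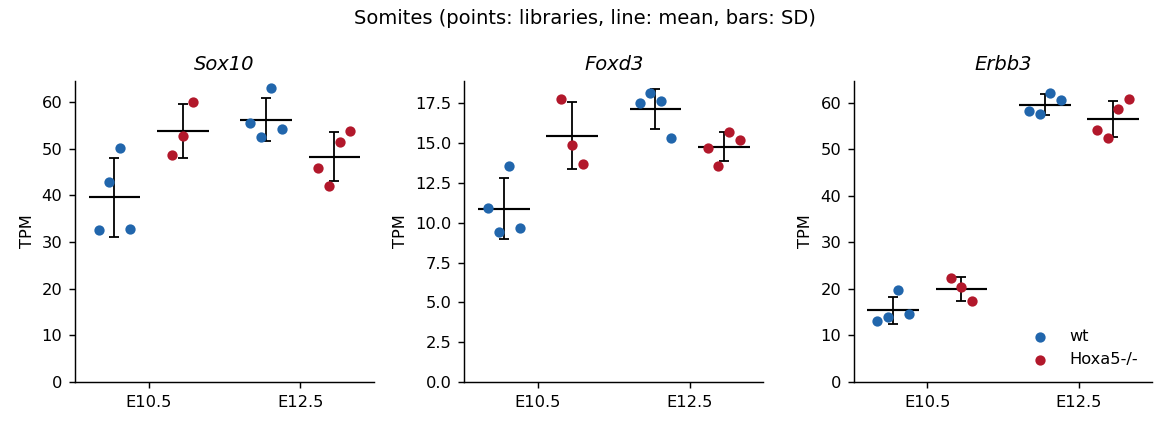
TPM of Sox10, Foxd3 and Erbb3 in every somite library by stage and genotype, on linear axes from 0, with the mean and SD of each group. Means of Hoxa5-/- libraries are above wt at E10.5 and below at E12.5, and the groups overlap except for Foxd3 at E10.5.

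Related genes outside diaphragm gave few calls. None of the tested glial genes, autonomic neuron genes, crest specifiers or ligands and partners was called by edgeR in trachea, lung, somites or iBAT, and DESeq2 called 1 autonomic neuron gene, Isl1, higher in lung at E15.5 (named after its value was seen). Kit, from the list of melanocyte genes, was lower in mutant lung at E15.5 (-0.63, adjusted p = 0.0236), and the cartilage genes Col9a1 (1.17) and Col9a3 (1.15) were higher in mutant lung at E12.5. For crest specifiers in somites at E10.5, 16 of 18 had a log2 fold change above 0, with a median of 0.26. At E12.5 the median of the same 18 genes was -0.082.

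Libraries of the same tissue, stage and genotype also differed in these genes, and such deviations of log2(TPM + 1) from the group mean were correlated between genes over all 57 libraries, as a description that shares tissue make-up and depth among genes. The genes most like Phox2a had Pearson r of 0.86 for Tlx2, 0.86 for Slc10a4, 0.82 for Chrna3 and 0.82 for Ecel1. Sox10 went with Insm1 (0.79), Gpr17 (0.77) and Hand2 (0.71). S100b went with Matn3 (0.80), Clec11a (0.78), Comp (0.75) and Acan (0.70), the last at 0.85 in trachea, lung and diaphragm and -0.18 in somites and iBAT. Foxd3 went with Gm12688 (0.78), Sox10 (0.67), Adam23 (0.66) and Insm1 (0.64). For Ret the highest were Septin3 (0.78), Jph4 (0.75), Sulf2 (0.71) and Dpysl5 (0.71), for Erbb3 Rab15, Capn2, Susd6 and Klhl5 (0.76 to 0.77), and for Ednrb Sema3e, Ppp1r16b, Frrs1l and Kctd21 (0.67 to 0.71).

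Among the members themselves, Sox10 and Foxd3 gave r of 0.67 (Spearman's rho 0.45) over 57 libraries, with 0.54 on log2(TPM + 0.1) and 0.51 on log2 CPM. By Spearman's rho, Phox2a with Ret (0.50) and Sox10 with Ret (0.49) were higher. The r of Sox10 and Foxd3 was 0.78 in trachea, lung and diaphragm and 0.067 in somites and iBAT. It was 0.47 over 55 libraries without the 2 libraries farthest from the median for Sox10. Without the same 2 libraries, Sox10 with Ret went from 0.55 to 0.54 and Sox10 with Phox2a from 0.52 to 0.33. Phox2a with Ret gave 0.51, and 0.46 without the 2 libraries farthest from the median for Phox2a. Erbb3 and Ednrb gave 0.51, and 0.33 without the 2 libraries farthest from the median for Erbb3, while Erbb3 and Sox10 gave -0.0037. On log2 CPM, Erbb3 and Ednrb gave 0.32. In trachea, lung and diaphragm r was 0.71 for Erbb3 with Ednrb, against 0.067 in somites and iBAT. In the same order it was 0.65 and -0.058 for Sox10 with Phox2a. It was 0.62 and 0.23 for Sox10 with Ret and 0.53 and 0.42 for Phox2a with Ret. S100b had a value below 0 with each of the other 6 genes, from -0.31 with Ednrb to -0.020 with Sox10. No p is given for these, since 21 pairs and 57 libraries from 14 groups are not independent trials.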

How the data were processed

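Before deposit, the authors used Trim Galore 0.6.5 for trimming, STAR 2.7.9a for alignment (GRCm39) and featureCounts 2.0.3 for gene counts, with an annotation of GENCODE M32 (Ensembl 109) that they curated for Hox genes. The deposited count tables hold raw counts, and the deposited TPM tables hold the authors' length-scaled values. Trachea, lung and diaphragm had 100-base single-end reads, somites and iBAT 150-base paired-end reads. Groups came from the sample labels. Mapping and counting were not varied. The iBAT sample names share a leading number between genotypes, the meaning of which is not given in the sources used here. For the other tissues nothing says which libraries share a litter. The tests treat each library as independent, which could not be checked, so p-values may be too small or too large.

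Counts were compared with edgeR 4.0.16 in R 4.3.3 (quasi-likelihood test, TMM, Benjamini-Hochberg) within 1 table, over genes whose TPM averaged 1 or more in a compared group. The SE is the log2 fold change divided by the square root of F. Differences of genotype effects needed an adjusted p under 0.05 only. DESeq2 1.42.0 was an alternative, as were its size factors in edgeR, 2 other filters, no fold change minimum, blocks by replicate number or by the leading number of the iBAT names, 1 fit per table and leaving out libraries. The edgeR and DESeq2 calls were tested on simulated data. Replicate numbers paired samples in 1 comparison, wt trachea over lung, where all 4 same-numbered pairs had r from 0.162 to 0.433. Between genotypes in iBAT, 4 of 5 such pairs had r over 0.1, with a range of 0.0761 to 0.156. Levels and figures used Python 3.11.15 with pandas 2.3.3, numpy 2.4.6 and matplotlib 3.10.9.

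The members, the lists and the tests were chosen with earlier results of these data known. Named are the members, Hoxa5, partner genes, per list the 2 strongest risers and the 2 strongest fallers among called genes whose groups do not overlap, and the 4 genes most like each member. The lists hold no member. Some genes that this rule names are not reported here.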

Additional observations from a re-analysis of the deposited data

Results flagged for a closer look

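Genotype effects differed between diaphragm and the other tissues of E15.5 in 7 tests of the difference. Against lung the differences on the log2 scale were -2.19 for Sox10, -1.26 for Ednrb, -3.82 for Phox2a and -2.90 for Ret, and against trachea they were -2.26 for Sox10, -1.18 for Ednrb and -2.61 for Ret.

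In 6 of 91 groups of libraries, 1 library stood far from the others by Dixon's test, and chance alone gives about 1 in 20. Trachea of Hoxa5-/- replicate 2 was high for both Phox2a (54.7 TPM) and Ret (23.99 TPM). Lung at E12.5 of Hoxa5-/- replicate 3, the deepest library, was high for Phox2a (4.42 TPM), and replicate 2 was high for Erbb3 (51.4 TPM). Diaphragm wt replicate 2 was high for Ret (4.05 TPM), and somites at E12.5 wt replicate 1 was low for Phox2a (4.81 TPM).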

How the results depend on the processing

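The number of members called kept within 1.5 times its main value in 18 of 18 comparisons with DESeq2, DESeq2 size factors, at least 10 counts, the replicate block and 1 fit for all libraries of a table. The replicate block changed no call of a member; in diaphragm it gave 4 called members. Blocking iBAT by the number that opens each sample's name gave 0 called members there. With no fold change minimum 5 members were called in wt somites at E12.5 over E10.5, and with all genes with a count 1 member, Sox10, was called in the change of the genotype effect between somite stages. Leaving out 1 library gave 2 to 4 called members in diaphragm, 0 to 3 in the change between somite stages and 2 to 4 in diaphragm minus lung. Over all genes, DESeq2 called more than edgeR in the genotype comparisons: 406 against 107 in diaphragm, 52 against 3 in trachea, 81 against 14 and 83 against 22 in lung at the earlier and later stage, 18 against 4 and 2 against 1 in somites, and 4 against 1 in iBAT. For differences of genotype effects it called 314 against 142 (diaphragm minus lung), 378 against 89 (diaphragm minus trachea), 59 against 1 (trachea minus lung), 18 against 5 (lung stages) and 17 against 3 (somite stages).

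Directions turned only for log2 fold changes that were not called and for r values. Erbb3 in lung at E15.5 was at 0.0073 with DESeq2, 0.0076 with its size factors, 0.0084 with at least 10 counts, 0.012 with all genes with a count, 0.00056 with the replicate block and 0.00034 with 1 fit per table. Without 1 library the log2 fold changes ran, in trachea, from -0.033 to 0.11 for Ednrb, -0.24 to 0.43 for Phox2a and -0.31 to 0.033 for Ret. They ran from -0.051 to 0.78 for Sox10, -0.17 to 0.65 for Foxd3, -0.95 to 0.79 for Phox2a and -0.099 to 0.19 for Ret in lung at E12.5. In lung at E15.5 they were -0.088 to 0.11 for Erbb3, -0.029 to 0.25 for Ednrb and -0.028 to 0.45 for Ret. S100b ran from -1.01 to 0.091 in diaphragm. In somites at E12.5 they were -0.19 to 0.087 for S100b, -0.042 to 0.18 for Ednrb, -0.46 to 0.0057 for Phox2a and -0.29 to 0.051 for Ret. The r of Erbb3 and Foxd3 was -0.080 with log2(TPM + 0.1) and -0.11 with log2 CPM, that of Erbb3 and Ret 0.033 and 0.041, and that of Ednrb and Ret -0.014 with log2 CPM. The cause was not tested. In mutant diaphragm the values of Phox2a and Ret rest on 8 to 30 reads per library.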
